A study of Arabidopsis thaliana with 24 samples.

Results

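Cytochrome P450 genes were followed in Arabidopsis thaliana leaves after a spray of 23 mM 2,4-D, a synthetic auxin used as a herbicide. A gene was included when the annotation of the array gave it a P450 symbol, that is CYP followed by a family number, a subfamily letter and a gene number, which leaves out the cyclophilins. This gave 23 genes of the 13350 named alone on a tested probe set (a group of short probes for 1 transcript), and each of the 23 had 1 probe set. A further 2 P450 probe sets were shared by several genes and were left out. The current RefSeq gene table (assembly TAIR10.1) holds 236 genes with such a symbol, so most P450 genes of the species are not named here, and the 23 are not a sample drawn evenly from the families. Of the 5 families present, CYP71 had 19 members, all of subfamily CYP71B, and CYP51, CYP78, CYP79 and CYP84 had 1 each.

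The plants were the wild type Col-0 (WT) and the line acx1-2 (ACX), which shares the Col-0 background and is named for ACX1, the gene of a peroxisomal acyl-CoA oxidase. The annotation names no probe set for ACX1 itself, so its level was not analysed here. Each genotype had 6 arrays named 0 h, 3 arrays from leaves taken 1 h after the 2,4-D spray and 3 from leaves taken 72 h after it, 24 in all, and each sample pooled leaves from at least 5 plants. The spray also held 1% dimethyl sulfoxide and 1% ethanol, and control plants received these solvents alone. The labels do not say whether the 0 h arrays came from those control plants, so a change against 0 h cannot be told apart from an effect of the spray itself, its solvents, the hour or the age of the leaf. Plant age is given only as leaves of like size and stage.

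P450s are heme enzymes, most of them anchored in the endoplasmic reticulum, that use electrons from NADPH-cytochrome P450 reductase to insert an oxygen atom into their substrates. In plants they act in the synthesis and breakdown of hormones, phenylpropanoids, sterols and defence compounds, and some oxidise herbicides before sugars are attached. The CYP71 family is the largest of the plant families and includes many members whose substrate is not established. CYP71B6 is known to act on indole-3-acetonitrile, CYP79A2 to turn phenylalanine into its aldoxime for benzylglucosinolate, CYP84A4 to take part in the synthesis of arabidopyrones, and CYP78A9 to promote the growth of fruits and seeds. CYP71B31 is known as a linalool-oxidising enzyme of flowers, and CYP51G2 is a relative of the sterol demethylase gene. No role is stated here for the other members.

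Expression values are log2 values per probe set, and the array medians lay between 5.95 and 6.17, the lower quartiles between 4.42 and 4.61 and the upper quartiles between 7.90 and 8.10. Arrays of 1 group correlated at r from 0.974 to 0.997. A gene is called changed when limma, fitted to all arrays and all 22746 probe sets, gave an adjusted p below 0.05, and the standard error (SE) of a log2 difference comes from that fit. For a treated group against 0 h the median SE over probe sets was 0.128, and the number of arrays limits the precision. The leaf mesophyll genes RCA, PSBY, PRK and SBPASE, 4 of 29 fixed markers that the annotation names, were above the upper quartile on all 24 arrays, as the tissue label says.

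The signal of the P450 probe sets ran from near the floor of the arrays to well above the upper quartile. CYP71B6 was the 1 member above the upper quartile on all arrays, with values from 8.69 to 10.78. Together with CYP71B26, CYP71B23, CYP71B28, CYP71B34, CYP71B24 and CYP71B5 it made up the 7 members that were above the median on all arrays. The signal crossed the median in 5 members, CYP71B22, CYP71B35, CYP71B29, CYP78A9 and CYP84A4. It stayed below the median on all arrays in the other 11. Of those 11, CYP71B27, CYP71B21, CYP71B37, CYP71B31, CYP71B16 and CYP71B30P were below the lower quartile on all arrays, and RefSeq lists CYP71B27 and CYP51G2 as transcribed pseudogenes. A probe set's signal depends on its probes as well as on its transcript, so these positions do not rank the genes by transcript abundance.

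**Figure D1:**
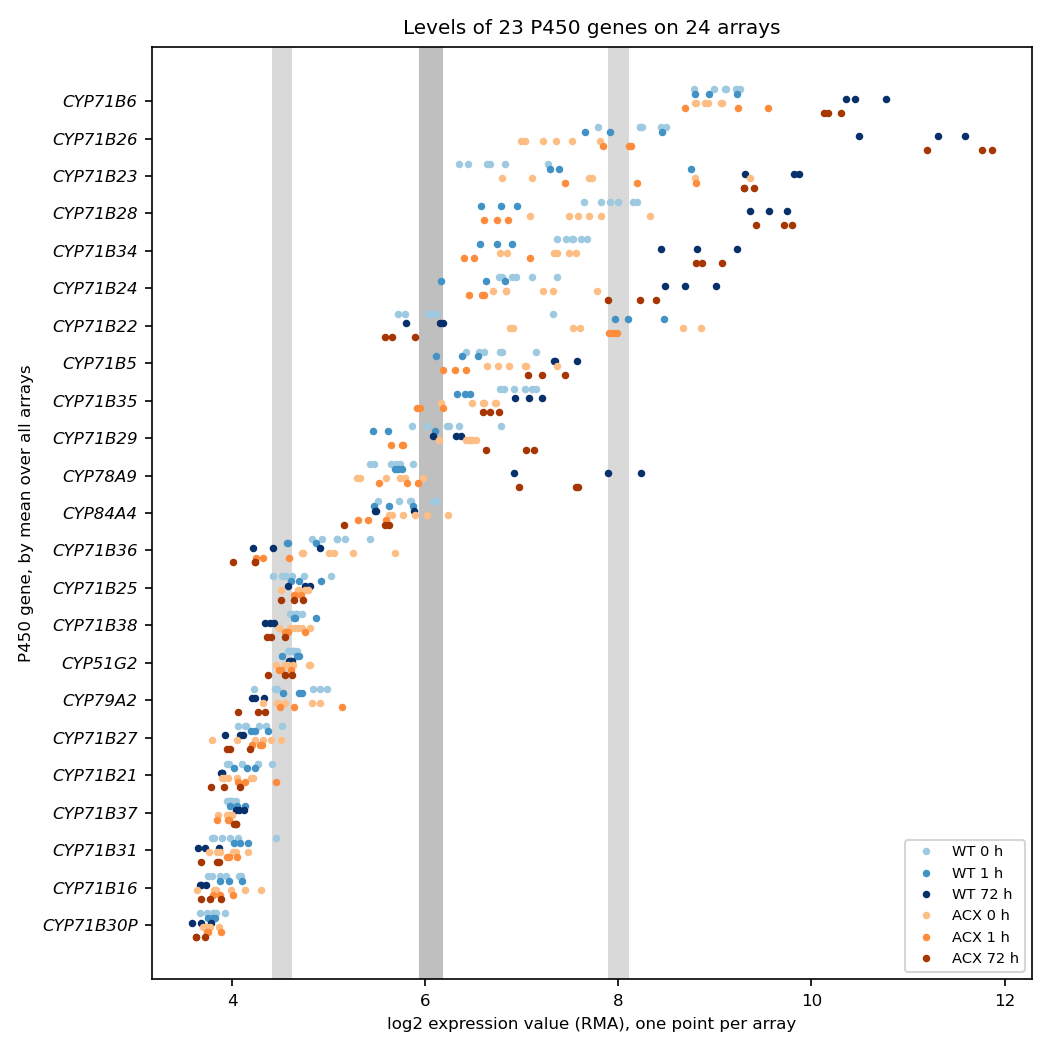
Log2 expression value of each of the 23 P450 genes (rows, by mean over all arrays), with 1 point per array coloured by genotype and time; the 3 grey bands are the ranges over arrays of the lower quartile, the median and the upper quartile. The 7 members that exceeded the median of the same array throughout are all CYP71B genes, and of the 11 that never reached it the 6 at the bottom also stayed below the lower quartile of the same array.

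At 1 h most of the P450 changes that passed the test were decreases. In WT 5 of 23 members (21.7%) were called, 1 higher and 4 lower, beside 26.7% of all probe sets (11% higher and 15.6% lower). The count in WT was thus not above the share of all probe sets, and its count of decreases was near that share. In ACX 9 of 23 were called, 1 higher and 8 lower, beside 23.6% of all probe sets (10.9% higher and 12.7% lower). The fits that left out 1 array each called 5 to 8 members in ACX. The median log2 change of the 23 members was 0.00 in WT and -0.03 in ACX, and that of all probe sets was -0.02 in both. The same 4 genes, CYP71B28, CYP71B29, CYP71B34 and CYP71B35, were called lower in both genotypes, whereas 9.29% of all probe sets were lower in both. No member rose in both, which 7.99% of all probe sets did.

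CYP71B28 had the largest decrease at 1 h in each genotype. Its values in WT were 6.79, 6.95 and 6.57 at 1 h, against a lowest, median and highest value of 7.64, 7.96 and 8.19 at 0 h. In ACX they were 6.85, 6.61 and 6.74 at 1 h, against 7.09, 7.63 and 8.33 at 0 h. All treated arrays were below all 0 h arrays, and the fall was 2.27-fold in WT (log2 change -1.18, SE 0.18, adjusted p = 4.18e-05) and 1.90-fold in ACX (-0.93, SE 0.18, adjusted p = 0.000544).

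CYP71B34 read 6.75, 6.56 and 6.90 in WT at 1 h, below the 0 h range of 7.36 to 7.67. In ACX its 1 h values of 7.08, 6.40 and 6.50 overlapped the 0 h range of 6.77 to 7.57. The log2 changes were -0.79 in WT (SE 0.18, adjusted p = 0.0022) and -0.56 in ACX (SE 0.18, adjusted p = 0.0257). CYP71B35 had log2 changes of -0.56 in WT and -0.53 in ACX, and CYP71B29 of -0.52 and -0.69, all called.

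Another 4 members were called lower at 1 h in ACX and not in WT: CYP71B5 (log2 change -0.65 in ACX, -0.37 in WT), CYP71B36 (-0.69 and -0.42), CYP71B24 (-0.57 and -0.44) and CYP84A4 (-0.43 and -0.20). None of these 4 had a called difference between genotypes in its 1 h change. The WT decrease of CYP71B5 was called with 0 h replicates 4 to 6 only (-0.56, adjusted p = 0.0055) and without WT 0 h replicate 2 (-0.43, adjusted p = 0.0401). The calls of CYP71B24 and CYP84A4 in ACX were near the threshold (adjusted p = 0.04 and 0.042) and were lost without ACX 1 h replicate 1 or 3 (adjusted p from 0.0763 to 0.157). The first was lost also without ACX 1 h replicate 2 or ACX 0 h replicate 2, 3 or 6, and the second without ACX 0 h replicate 2, 4 or 6. Both were lost when only the groups compared were fitted (0.0978 and 0.0596) and with a block for the replicate number (0.104 and 0.124). The CYP84A4 call was lost also with each array centred on its median (0.082) and under quantile normalization (0.0532). Without ACX 1 h replicate 3 the count in ACX went from 9 to 5. The calls lost there included that of CYP71B34 or CYP71B35, so that call in ACX also hung on this array.

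The increases at 1 h were in 2 genes of the same stretch of chromosome 3, 1 in each genotype. CYP71B22 read 8.47, 7.96 and 8.10 in WT at 1 h, against 5.72, 6.04 and 7.32 as lowest, median and highest at 0 h. These groups did not overlap, and the increase was 4.02-fold (log2 change 2.01, SE 0.37, adjusted p = 0.000284). In ACX the gene read 7.99, 7.90 and 7.95 at 1 h, inside its 0 h range of 6.88 to 8.86, and the log2 change was 0.20 (SE 0.37, adjusted p = 0.774).

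CYP71B26 was the member that rose in ACX at 1 h. It read 8.11, 7.84 and 8.13 at 1 h, against 6.99, 7.29 and 7.81 as lowest, median and highest at 0 h. The groups came within a few hundredths of a log2 unit of each other without overlapping (log2 change 0.70, SE 0.23, adjusted p = 0.0263). The call was lost without ACX 1 h replicate 1 or 3 (adjusted p = 0.0815 and 0.113), without ACX 0 h replicate 5 (0.054) and with 0 h replicates 1 to 3 only (0.188). In WT the 1 h values of 7.65, 7.91 and 8.45 lay in or just under the 0 h range of 7.79 to 8.50.

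**Figure D2:**
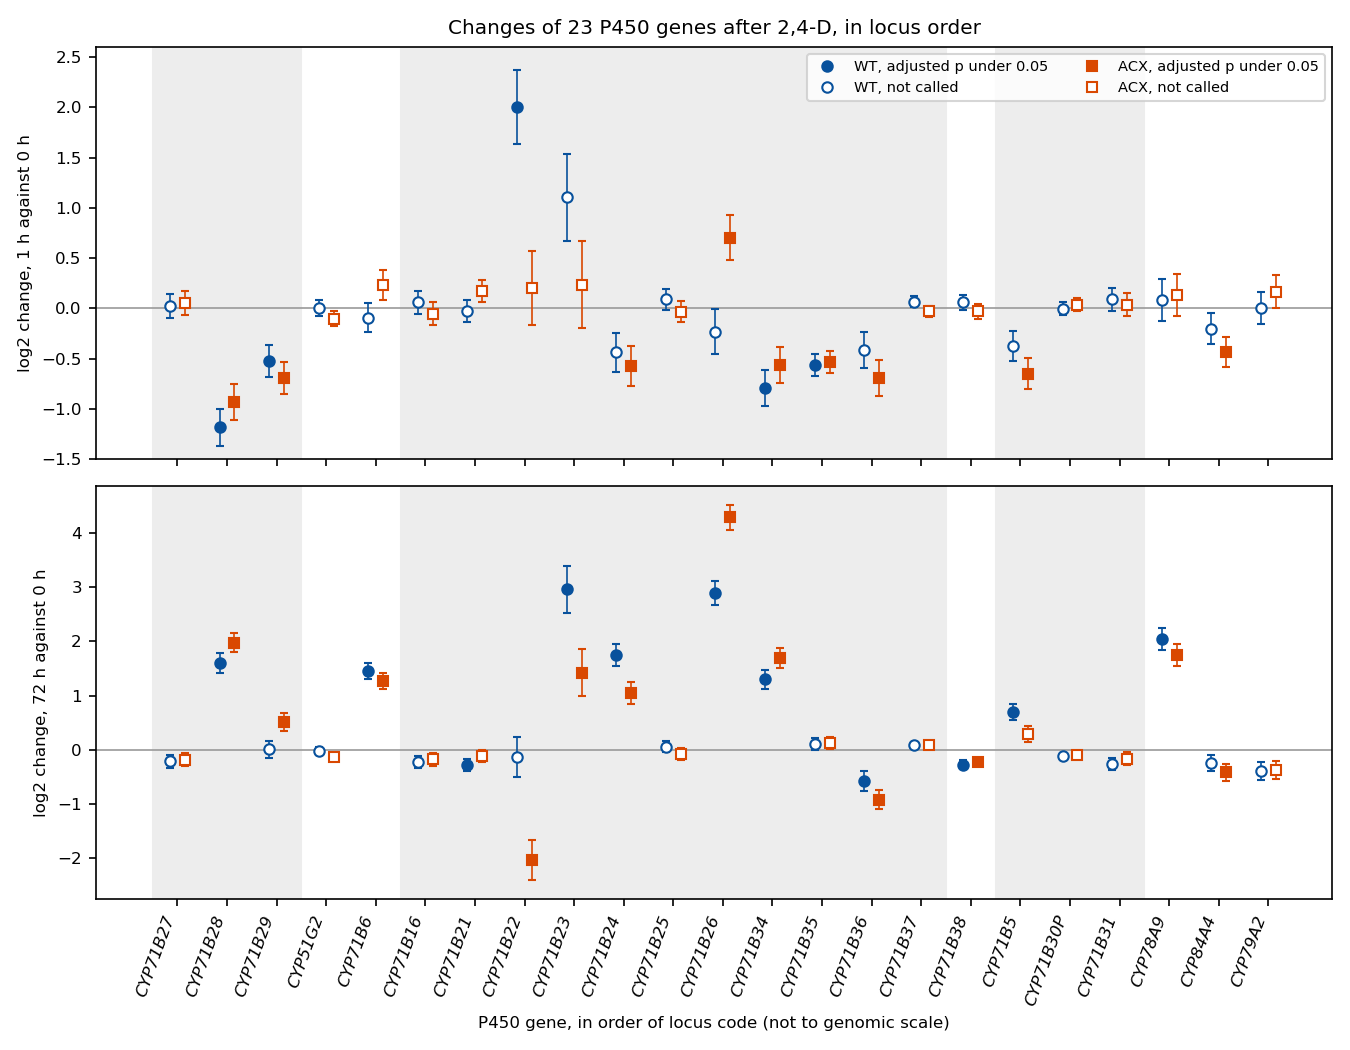
Log2 change (limma estimate, bars 1 SE) at 1 h (upper panel) and 72 h (lower panel) against 0 h for the 23 P450 genes in order of locus code, not to scale; circles are WT, squares ACX, filled symbols have an adjusted p below 0.05, and grey shading marks the 3 stretches of neighbouring CYP71B genes. At 1 h CYP71B22 in WT has the largest increase (2.01) and CYP71B28 in WT the largest decrease (-1.18), and at 72 h CYP71B26 has the largest increase in ACX (4.29).

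At 72 h more P450 genes rose than fell, and 7 rose in both genotypes. The largest decrease was that of CYP71B22 in ACX (log2 change -2.03). In WT 11 of 23 members were called, 8 higher and 3 lower, beside 53.4% of all probe sets (26.4% higher and 27% lower). In ACX 12 of 23 members were called, 8 higher and 4 lower, beside 53.3% of all probe sets (26.3% higher and 27% lower). The count of called members was thus near the share of all probe sets, and the median log2 change over members was 0.01 in WT and -0.08 in ACX, beside -0.06 over all probe sets in each. Members called higher in both genotypes numbered 7 (21.3% of all probe sets were), those called lower in both 2 (20% of all probe sets were), and none was called in opposite directions. Centring each array on its median gave 8 higher and 10 lower in WT and 7 higher and 9 lower in ACX. Of all 22746 probe sets it called 4948 higher and 10521 lower in WT, and 5007 and 10012 in ACX. Quantile normalization gave 9 higher and 1 lower in WT and 8 higher and 3 lower in ACX. Of all probe sets it called 5585 higher and 5686 lower in WT, and 5597 and 5629 in ACX.

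CYP71B26 rose most in ACX. Its values at 72 h were 11.87, 11.19 and 11.77 in ACX and 10.49, 11.31 and 11.60 in WT, all above every 0 h array. The increase was 19.6-fold in ACX (log2 change 4.29, SE 0.23, adjusted p = 5.85e-13) and 7.44-fold in WT (2.90, SE 0.23, adjusted p = 4.34e-10). The values of the genotypes overlapped at 72 h and, by a narrow margin, at 0 h, where the ACX mean was lower.

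CYP71B23, the neighbour of CYP71B22, rose 7.81-fold in WT at 72 h, the largest increase in that genotype (log2 change 2.96, SE 0.43, adjusted p = 5.05e-06). Its WT values were 9.82, 9.87 and 9.31 at 72 h, above the 0 h range of 6.35 to 7.27. In ACX the values of 9.30, 9.41 and 9.30 at 72 h overlapped the wide 0 h range of 6.79 to 9.37 (log2 change 1.42, SE 0.43, adjusted p = 0.00854). At 1 h it read 8.75, 7.38 and 7.29 in WT, all above the 0 h arrays, with an adjusted p of 0.0645 that fell below the threshold when only the groups compared were fitted (0.0244), with array centring (0.0473) and without the lowest 25% of probe sets (0.0462).

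CYP71B28 and CYP71B34, called lower at 1 h in both genotypes, were called higher at 72 h in both, and they were the 2 members called in all 4 comparisons with 0 h, as were 10.9% of all probe sets. For CYP71B34 the 1 h call in ACX came with overlapping groups. CYP71B28 read 9.56, 9.37 and 9.74 in WT and 9.80, 9.71 and 9.42 in ACX at 72 h. This was a log2 change of 1.60 (SE 0.18, adjusted p = 1.3e-07) and of 1.98 (SE 0.18, adjusted p = 4.74e-09). CYP71B34 read 8.81, 8.44 and 9.23 in WT and 9.08, 8.87 and 8.81 in ACX, 2.46-fold and 3.23-fold above 0 h. The 1 h and 72 h changes share their 0 h arrays. The direct log2 difference of 72 h and 1 h, given below, does not use those arrays, though its SE and adjusted p do.

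CYP71B6, whose enzyme acts on indole-3-acetonitrile, did not pass the test at 1 h (log2 change -0.09 in WT and 0.23 in ACX, the latter 0.47 with an adjusted p of 0.0155 without ACX 1 h replicate 1) and rose at 72 h. It read 10.36, 10.78 and 10.45 in WT at 72 h against 8.78, 9.11 and 9.26 as lowest, median and highest at 0 h. In ACX it read 10.17, 10.30 and 10.13 against 8.79, 8.92 and 9.07. No 72 h array overlapped a 0 h array, and the increases were 2.73-fold in WT and 2.42-fold in ACX (log2 1.45 and 1.27, SE 0.15, adjusted p = 2.25e-08 and 1.56e-07).

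CYP78A9, the organ growth gene, was the 1 member outside CYP71B that rose. It read 7.89, 6.92 and 8.24 in WT and 6.97, 7.56 and 7.58 in ACX at 72 h. At 0 h no array exceeded 5.87 in WT or 5.97 in ACX, and at 1 h no array exceeded 5.93. The increases at 72 h were 4.12-fold in WT and 3.37-fold in ACX (log2 2.04 and 1.75, SE 0.21, adjusted p = 2.83e-08 and 2.76e-07).

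CYP71B24 rose 3.37-fold in WT and 2.07-fold in ACX at 72 h. Smaller increases were called in 1 genotype each, CYP71B5 in WT (log2 change 0.70, and 0.29 in ACX, which passed the threshold only without ACX 0 h replicate 3, without replicates 3 and 6, or with 0 h replicates 4 to 6 only) and CYP71B29 in ACX (0.52, and 0.01 in WT). The CYP71B29 call was lost under array centring (adjusted p = 0.0519), quantile normalization (0.0871) and without ACX 72 h replicate 1 or 3 (0.0528 and 0.0731). CYP71B5 had the smallest spread of group means, 1.11 log2 units, among the 7 members above the median on all arrays.

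**Figure D3:**
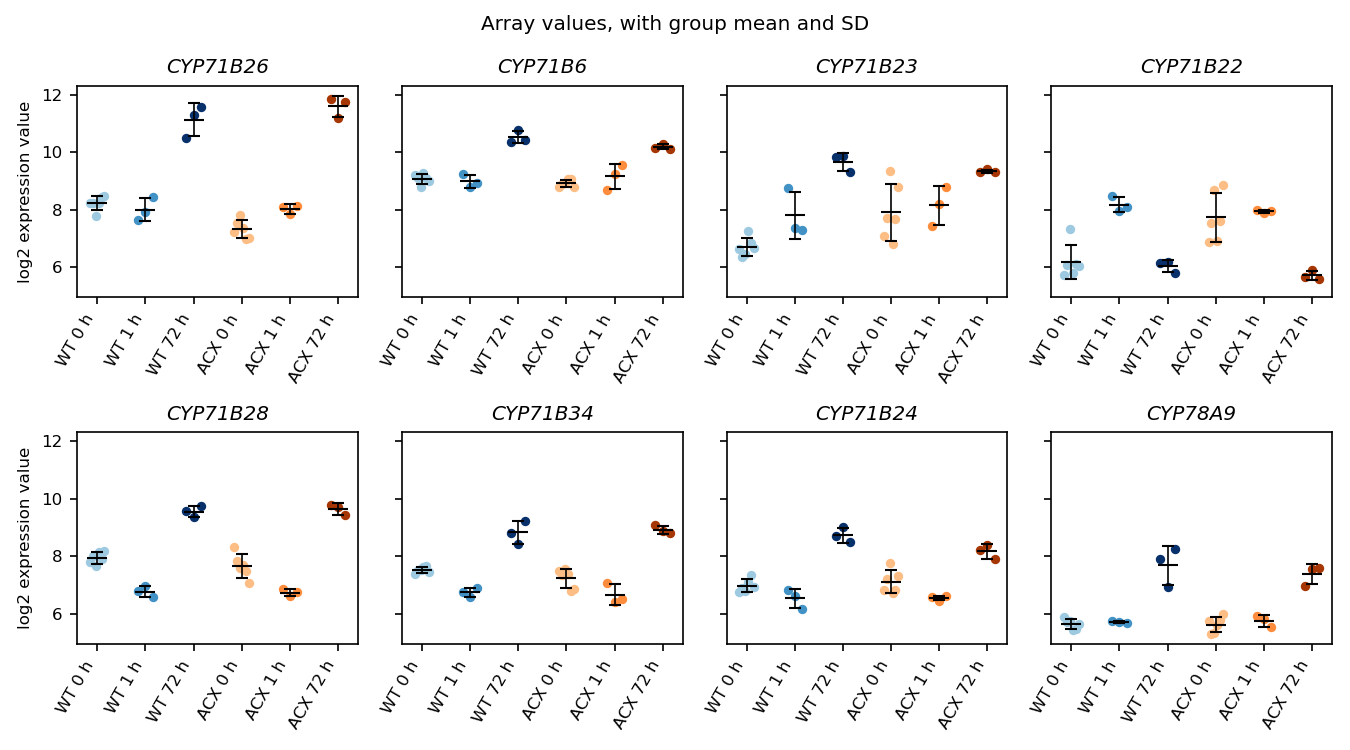
Log2 expression value on each array (points) for 8 P450 genes in the 6 groups, with the group mean and SD (black bars; n = 6 at 0 h and 3 at 1 h and 72 h). CYP71B26, CYP71B6, CYP71B28, CYP71B34, CYP71B24 and CYP78A9 are highest at 72 h in both genotypes, whereas CYP71B22 is low at 72 h and spread widely at 0 h in ACX.

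The decreases at 72 h were smaller, except for CYP71B22 in ACX. CYP71B22 read 5.66, 5.89 and 5.58 in ACX at 72 h, below every 0 h array of ACX, a 4.08-fold decrease (log2 change -2.03, SE 0.37, adjusted p = 7e-05). In WT it read 6.15, 6.18 and 5.80 at 72 h, inside the 0 h range (log2 change -0.13, adjusted p = 0.787). CYP71B36 fell in both genotypes (log2 change -0.57 in WT and -0.92 in ACX), as did CYP71B38, whose changes of -0.27 and -0.22 were small, at a signal near the lower quartile. The WT call of CYP71B38 was lost under quantile normalization (adjusted p = 0.0759).

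CYP84A4, the arabidopyrone gene, was called lower in ACX at 72 h (log2 change -0.41, SE 0.15, adjusted p = 0.0255) and had a change of -0.24 in WT. Its change in ACX was -0.27 without ACX 72 h replicate 1 (adjusted p = 0.202) and -0.27 when 0 h replicates 4 to 6 were left out (0.168), and without ACX 0 h replicate 6 it was -0.34 (0.0568). CYP71B21 was called lower in WT at 72 h (log2 change -0.27, adjusted p = 0.042), and leaving out any 1 of the 3 WT 72 h arrays ended that call (adjusted p from 0.0893 to 0.0964), as did leaving out WT 0 h replicate 2, 3 or 5. CYP79A2, the benzylglucosinolate gene, had changes of -0.39 in WT and -0.37 in ACX at 72 h, with adjusted p of 0.0502 and 0.0627. Its WT 0 h arrays read 4.98, 4.90 and 4.84 in replicates 1 to 3 and 4.47, 4.44 and 4.23 in replicates 4 to 6. The size of the WT change thus depends on which 0 h arrays are used. In ACX at 0 h replicates 4 to 6 were the higher ones.

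Among the leaf markers, 3 of the 4 mesophyll genes fell at 72 h in each genotype (median log2 change of the 4 was -1.01 in WT and -1.35 in ACX). TRY, the 1 measured of 6 trichome markers, fell at 72 h (log2 change -2.85 in WT and -2.55 in ACX), and so did FMA, the 1 measured of 7 guard cell markers (-0.40 and -0.88). The root list of 8 and the phloem and xylem list of 7 had no gene named here. The part of such shifts in the P450 changes was not tested, and in whole leaves fewer cells of a type and less transcript per cell cannot be told apart.

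The log2 difference from 1 h to 72 h does not use the 0 h arrays. Its SE and adjusted p do, as limma took the spread from all 24 arrays. In WT 13 of 23 members were called from 1 h to 72 h, 10 higher and 3 lower, beside 49.6% of all probe sets (25.2% higher and 24.4% lower). In ACX 11 were called, 9 higher and 2 lower, beside 46.2% (23.6% higher and 22.6% lower). Array centring changed these splits to 9 higher and 10 lower in WT and 9 higher and 8 lower in ACX. Of all 22746 probe sets it called 4316 higher and 10451 lower in WT, and 4199 and 9218 in ACX. CYP71B26 rose by 3.13 in WT and by 3.59 in ACX on the log2 scale, CYP71B28 by 2.79 and 2.91, and CYP71B34 by 2.09 and 2.26. For each of these 3 genes every 72 h array was above every 1 h array of its genotype.

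CYP71B22 moved the other way and fell 4.39-fold in WT (log2 change -2.13, SE 0.42, adjusted p = 0.000249) and 4.70-fold in ACX (-2.23, SE 0.42, adjusted p = 0.000166) from 1 h to 72 h. CYP71B35 rose from 1 h to 72 h by 0.67 in WT and 0.66 in ACX, and its 72 h values did not differ from 0 h past the threshold in either genotype (0.11 and 0.12). CYP79A2 was called lower in ACX (log2 change -0.53, adjusted p = 0.0246), and the call was lost without ACX 1 h replicate 2, its highest array at 5.14 (adjusted p = 0.171), and without ACX 72 h replicate 1 (0.0973). CYP71B31, the linalool gene, was called lower in WT (-0.35, adjusted p = 0.0342) at values of 3.64 to 4.17, all under the lower quartile, and 4 of the 6 fits that left out a WT 1 h or 72 h array ended that call (adjusted p from 0.0663 to 0.115).

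Between the genotypes at 0 h, 4 members differed, 2 higher and 2 lower in ACX, beside 7.35% of all probe sets (3.46% higher and 3.89% lower). All 4 lie in the same stretch of CYP71B genes. The 0 h groups of CYP71B35 did not overlap, with 6.77 to 7.14 in WT and 6.16 to 6.73 in ACX (log2 difference of ACX minus WT -0.41, SE 0.09, adjusted p = 0.00748). CYP71B26 read 7.79 to 8.50 in WT and 6.99 to 7.81 in ACX (-0.91, SE 0.18, adjusted p = 0.00405). With 0 h replicates 1 to 3 only, neither passed the threshold (-0.27, adjusted p = 0.0969, and -0.56, adjusted p = 0.185).

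The higher pair in ACX at 0 h, CYP71B22 and CYP71B23, had uneven 0 h arrays. For CYP71B22 the 6 ACX arrays read 6.88, 7.53, 8.67, 6.91, 7.61 and 8.86 in replicate order, and the WT arrays 5.72, 6.06, 7.32, 5.79, 6.11 and 6.03. For CYP71B23 the ACX arrays read 7.10, 7.72, 9.37, 6.79, 7.69 and 8.80, and the WT arrays 6.64, 6.35, 6.44, 7.27, 6.83 and 6.67. ACX replicates 3 and 6 were the highest for both genes. The log2 differences were 1.57 for CYP71B22 (SE 0.30, adjusted p = 0.00272) and 1.21 for CYP71B23 (SE 0.35, adjusted p = 0.0394). Without ACX replicates 3 and 6, a choice made after seeing the values, CYP71B22 differed by 1.06 (adjusted p = 0.0111) and CYP71B23 by 0.63 (adjusted p = 0.254). The CYP71B23 call was lost also without any of 9 single 0 h arrays (WT replicate 1, 2, 3, 5 or 6, ACX replicate 2, 3, 5 or 6, adjusted p from 0.0504 to 0.103). Without the same 2 ACX arrays the 72 h change in ACX was 2.01 for CYP71B23 and -1.52 for CYP71B22, and the counts of called members were 7 in ACX at 1 h, 14 in ACX at 72 h and 3 between the genotypes at 0 h. Of all 22746 probe sets 2766 were then called higher and 3330 lower, 5946 and 6210, and 536 and 565 in the same order.

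**Figure D4:**
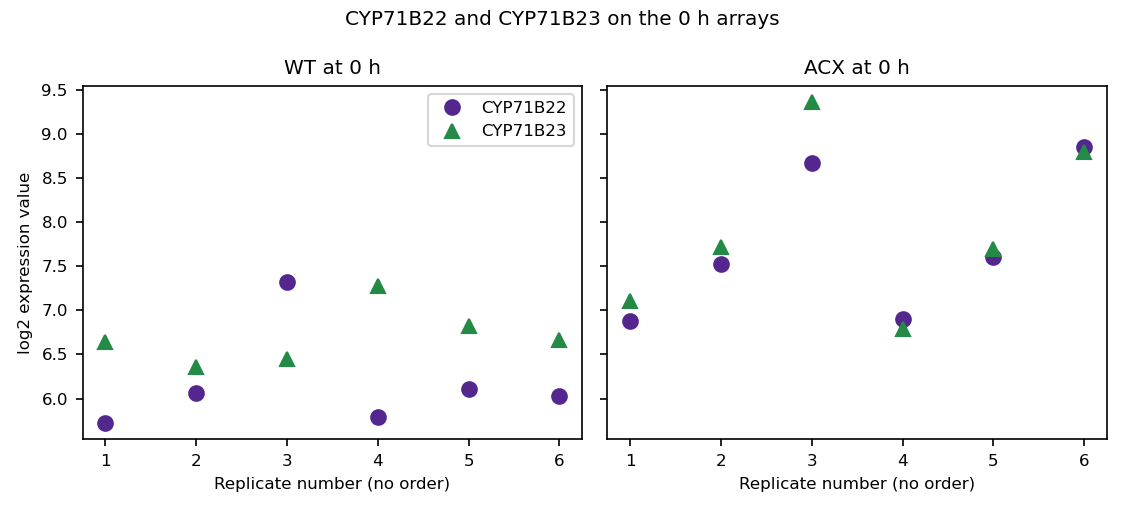
Log2 expression value of CYP71B22 (circles) and CYP71B23 (triangles) on each of the 6 arrays at 0 h, WT on the left and ACX on the right. The labels do not say whether the replicate numbers carry an order. In ACX replicates 3 and 6 read 8.67 and 8.86 for CYP71B22 and 9.37 and 8.80 for CYP71B23, above the other 4 arrays for both genes.

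At 1 h and 72 h after the spray no member differed between the genotypes past the threshold, with CYP71B29 near it at 72 h. At 1 h the limma count was 0 of 23, beside 0.0352% of all probe sets called, with differences of ACX minus WT from -0.39 to 0.34 and SE from 0.06 to 0.50. At 72 h the count was also 0, beside 2.79% of all probe sets called, with differences from -0.56 to 0.68. That share depends on the shared spread, as a fit of only the groups compared called 0 of all 22746 probe sets higher and 2 lower. At the looser threshold of an unadjusted limma p below 0.05, 1 member passed at 1 h and 3 at 72 h. The share of all probe sets at that threshold was not computed, so these counts cannot be set against it and are not read further. CYP71B29 had the largest difference at 72 h, with 7.04, 6.63 and 7.13 in ACX and 6.32, 6.08 and 6.37 in WT (log2 difference 0.68, SE 0.19, adjusted p = 0.0536). It passed the threshold without the lowest 25% of probe sets (adjusted p = 0.0479), with the replicate block (0.0296), with 0 h replicates 4 to 6 only (0.0389) and without ACX 72 h replicate 2 (0.0283). CYP71B35 was lower in ACX by a like amount at each time (-0.41 at 0 h, -0.39 at 1 h and -0.40 at 72 h), and the test was passed at 0 h only. With 0 h replicates 1 to 3 only, the 0 h difference was smaller (-0.27, adjusted p = 0.0969).

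The test of the genotype difference in the 72 h change called 2 members, 1 in each direction, beside 5.99% of all probe sets (3.1% higher and 2.89% lower). The 72 h change of CYP71B26 was larger in ACX by 1.39 log2 units (SE 0.32, adjusted p = 0.0118), and that of CYP71B22 was lower in ACX (log2 difference -1.90, SE 0.52, adjusted p = 0.0319). For both genes the 72 h values of the genotypes overlapped, and the 0 h values differed past the threshold. For CYP71B26 the difference was 1.04 with 0 h replicates 1 to 3 only (adjusted p = 0.114) and 1.07 without WT 72 h replicate 1 (0.0558). For CYP71B22 it was -1.66 with 0 h replicates 1 to 3 only (0.0838) and -1.39 without ACX 0 h replicates 3 and 6 (0.0314), and 6 of the fits that left out 1 array ended the call (WT 0 h replicate 1 or 4, WT 72 h replicate 1 or 2, ACX 72 h replicate 1 or 3, adjusted p from 0.0508 to 0.0894).

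For the 1 h change limma called none of 23 members, beside 0.145% of all probe sets. At the looser threshold of an unadjusted p below 0.05, 2 members passed. The share of all probe sets at it was not computed, so that count is not read further either. The largest differences were again in CYP71B22 (-1.80, SE 0.52, adjusted p = 0.213) and CYP71B26 (0.94, SE 0.32, adjusted p = 0.361). The CYP71B22 value passed the threshold with 0 h replicates 4 to 6 only (-2.05, adjusted p = 0.0221) and without WT 0 h replicate 3, the array that read 7.32 (-2.03, adjusted p = 0.0428).

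Most members are neighbours on the chromosomes by their locus codes. CYP71B16, CYP71B21, CYP71B22, CYP71B23, CYP71B24, CYP71B25, CYP71B26, CYP71B34, CYP71B35, CYP71B36 and CYP71B37 lie between AT3G26150 and AT3G26330, where RefSeq also lists further CYP71B genes that no probe set names alone here. Among these 11, 4 rose and 2 fell at 72 h in WT and 4 rose and 2 fell in ACX, shares near those of all probe sets (53.4% and 53.3% called), with log2 changes from -0.57 to 2.96 in WT and from -2.03 to 4.29 in ACX. CYP71B22 and CYP71B23 are adjacent with no locus between them, and at 72 h their log2 changes were -0.13 and 2.96 in WT and -2.03 and 1.42 in ACX. CYP71B34, CYP71B35, CYP71B36 and CYP71B37, adjacent as well, had 72 h changes in WT of 1.3, 0.11, -0.57 and 0.09.

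The other groups of neighbours were smaller. CYP71B27, CYP71B28 and CYP71B29 lie between AT1G13070 and AT1G13100, and CYP71B28 and CYP71B29 fell in both genotypes at 1 h while the pseudogene CYP71B27 had log2 changes of 0.03 and 0.05. CYP71B5, CYP71B30P and CYP71B31 lie between AT3G53280 and AT3G53300, and of these only CYP71B5 was called in a comparison with 0 h. Near-identical copies can share probes, so a probe set of this subfamily may also read a relative, which cannot be checked without the probe sequences.

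Of the 23 members 15 were called in at least 1 comparison with 0 h and 8 in none, beside 71.4% of all probe sets called in at least 1. CYP71B25, CYP51G2, CYP71B27, CYP71B37, CYP71B16 and CYP71B30P were called in none of the 11 comparisons, and 75.8% of all probe sets were called in at least 1 of them. All 6 were below the median on all arrays, and their group means spanned 0.12 to 0.29 log2 units. CYP51G2, for example, had group means from 4.51 to 4.63. With array centring, which lowered the median of all probe sets at 72 h from -0.06 to -0.21 in WT and to -0.20 in ACX, CYP51G2, CYP71B16 and CYP71B30P passed the threshold as lower at 72 h in both genotypes (log2 changes from -0.17 to -0.38).

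By function, 6 of 14 lists of P450s held a member, with 1 each: camalexin and indole acetonitrile (CYP71B6), phenylpropanoids (CYP84A4), sterols and triterpenes (CYP51G2), organ growth (CYP78A9), volatile terpenes (CYP71B31) and stress response (CYP71B23). The lists for abscisic acid, brassinosteroids, carotenoids, surface lipids, cytokinin and strigolactone, gibberellin, glucosinolates with indoles, and jasmonate held no member. The glucosinolate list did not include CYP79A2, which is a member. Electron donors of P450s, a list of 11, had none named either.

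The glucosinolate pathway beyond its P450s had 7 of 38 listed genes measured. At 1 h 4 of the 7 fell in WT and 5 in ACX and none rose, and at 72 h 3 rose and 1 fell in each genotype. Of all probe sets, 15.6% in WT and 12.7% in ACX fell at 1 h, and at 72 h 26.4% and 26.3% rose and 27% fell in each genotype. The median log2 change of the 7 was -0.76 in WT and -0.73 in ACX at 1 h and 0.53 and 0.06 at 72 h. GTR1, a glucosinolate transporter gene, fell at both times in both genotypes, with log2 changes of -1.3 in WT and -2.71 in ACX at 1 h and of -0.53 and -1.62 at 72 h. The WT call at 72 h was lost with 0 h replicates 1 to 3 only (adjusted p = 0.14). GTR2, its close relative, fell at 1 h (log2 change -0.76 in WT and -0.73 in ACX) and rose at 72 h (1.14 and 0.99), as did AOP1, a gene whose relatives modify glucosinolate side chains (-0.98 and -0.98, then 1.31 and 1.63). The 1 h falls of AOP1 were lost without any 1 of the 3 1 h arrays of either genotype (adjusted p from 0.0514 to 0.111), and also without WT 0 h replicate 4, 5 or 6 or ACX 0 h replicate 1 or 4. BCAT4, an aminotransferase gene of methionine chain elongation, rose at 72 h (1.35 and 1.36), and its 1 h decrease in ACX (-0.44, adjusted p = 0.0392) was lost in 7 of the 9 fits that left out 1 ACX array of those groups.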

How the data were processed

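Transcripts were measured on 24 Affymetrix ATH1 arrays in 6 groups taken from the labels. The deposited table holds log2 values, 1 per probe set and array. The authors ran RMA and limma, per the submitters' processing notes. Tool versions, and whether RMA was run on all arrays at once, are not stated in what was used here. RMA sets arrays to nearly 1 distribution and compresses changes near the floor. Of 22810 probe sets 64 controls were left out. The platform annotation of 2016 gave 13513 tested probe sets 1 gene, 503 several and 8730 none listed. All 23 members matched the RefSeq table (TAIR10.1), used only for names, gene types and neighbours.

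No scaling or filter was added to the deposited log2 values. limma 3.58.1 in R 4.3.3 fitted 1 mean per group to all 24 arrays (18 residual and 3.23 prior degrees of freedom), with Benjamini-Hochberg adjustment over 22746 probe sets within each of 11 comparisons and two-sided tests at 0.05. The code was tested on simulated data. The labels call the replicates independent biological ones.

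The members and lists were chosen with earlier results of these data known. Genes were named by rule: the 8 largest called changes each way without overlap against 0 h and between times, the 6 each way for genotype comparisons, up to 4 per list, the 3 highest and 3 lowest by mean and the steadiest above the median; the other members were added to account for all 23. Alternatives were array centring, quantile normalization, leaving out the lowest 25% of probe sets, a trended robust prior, a fit of the compared groups alone, a block for the replicate number, 0 h replicates 1 to 3 or 4 to 6 alone and leaving out each array in turn.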

Additional observations from a re-analysis of the deposited data

Results flagged for a closer look

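On 46 combinations of a member and a 0 h group, 3 had an array far from the other 5 by Dixon's criterion, which chance alone meets in about 1 in 20 groups. CYP71B22 read 7.32 on WT 0 h replicate 3, with the next array at 6.11. CYP71B29 had a lowest ACX 0 h array of 6.14, with the next at 6.42. CYP71B37 had a lowest ACX 0 h array of 3.85, with the next at 3.95. In a test of the difference itself, the 72 h change differed between the genotypes for CYP71B26 (ACX minus WT 1.39, adjusted p = 0.0118) and for CYP71B22 (-1.90, adjusted p = 0.0319), both fitted with limma.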

How the results depend on the processing

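With each array centred on its median the count of called members went to 18 in WT at 72 h against 0 h and to 17 in ACX at 72 h against 1 h. Of all 22746 probe sets, 4948 were called higher and 10521 lower in the first, and 4199 and 9218 in the second. For ACX against WT at 72 h the count of members was 1 (CYP71B29) instead of 0 without the lowest 25% of probe sets (which kept 16 members), with the replicate number as a block, and with 0 h replicates 4 to 6 only. Of all probe sets these fits called 337 higher and 283 lower of 17059, then 271 and 205, then 399 and 368 of 22746. The genotype difference of the 1 h change also gave 1 (CYP71B22) with 0 h replicates 4 to 6 only, where 558 of all probe sets were called higher and 564 lower. That of the 72 h change gave 1 when only the groups compared were fitted (567 of all probe sets higher and 616 lower). It gave 0 with 0 h replicates 1 to 3 only (670 of all probe sets higher and 724 lower). The cause was not tested. Leaving out each array in turn gave 4 to 6 called members in WT at 1 h, 9 to 13 in WT at 72 h, 5 to 8 in ACX at 1 h, 9 to 15 in ACX at 72 h, 11 to 13 and 10 to 13 from 1 h to 72 h in WT and ACX, 3 to 5 between genotypes at 0 h, 0 to 0 at 1 h, 0 to 1 at 72 h, 0 to 1 for the 1 h change between genotypes (1 without WT 0 h replicate 3) and 0 to 2 for the 72 h change between genotypes (0 without WT 72 h replicate 1). No value of a named gene that passed the test changed sign under these alternatives.

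Over whole arrays the replicate numbers showed no common pairing. Deviations of same-numbered arrays correlated at a median of 0.007 over 45 pairs (from -0.51 to 0.34). The median was -0.01 over 90 pairs with different numbers. A median over whole arrays does not decide whether single genes are paired. In ACX at 0 h CYP71B22 read 6.88, 7.53 and 8.67, then 6.91, 7.61 and 8.86 in replicate order. CYP71B23 read 7.10, 7.72 and 9.37, then 6.79, 7.69 and 8.80. In WT at 0 h the order did not repeat for either gene. Pairing of single genes was not tested. With the replicate block, 5, 10, 6 and 10 members were called against 0 h in WT at 1 h and 72 h and ACX at 1 h and 72 h. Of all 22746 probe sets it called 2236 higher and 3141 lower, 5613 and 5359, 2190 and 2608, and 5563 and 5388 in the same order. The alternative of a second probe set per gene was not run, since each member has 1. Members near the floor limit what a fall could show.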

Other observations

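A probe set shared by CYP71B19 and CYP71B20, left out of the 23 because it names more than 1 gene, belongs to the same stretch of CYP71B genes on chromosome 3. Its log2 change at 72 h was 2.57 in WT and 2.34 in ACX (SE 0.15, limma adjusted p = 4.69e-12 and 1.84e-11), and at 1 h 0.32 and 0.21 with adjusted p of 0.137 and 0.393. It did not differ between genotypes past the threshold at any time. Which of the pair the signal came from cannot be told apart. The probe set shared by CYP79C2 and a neighbouring locus was lower in ACX at 72 h (log2 change -0.39, adjusted p = 0.0159) and had a change of -0.22 in WT (adjusted p = 0.16).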
